A study of Mus musculus with 6 samples.

Results

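The genes described here encode the integrin chains, the laminin chains, and the nidogens and perlecan that join laminin to the rest of the basement membrane. They were taken by symbol: every array row with exactly 1 gene symbol that begins with Itga, Itgb, Lama, Lamb or Lamc, or that equals Nid1, Nid2 or Hspg2, without the integrin-binding proteins named Itgb1bp and Itgb3bp, and with the highest-mean row for each gene. The rule uses names only and no measured value other than the mean that picks a row. It was set with earlier results of these data known. It gave 41 of the 19938 named genes on the array, with 27 integrin chains, 10 laminin chains, 3 nidogen and perlecan genes, and Itgbl1, a secreted integrin-like protein that also carries the prefix. Expression was measured on 6 Affymetrix mouse gene arrays, each hybridised with RNA from larger proximal airways cut from frozen lung sections of mice aged 9 weeks on a mixed C57BL/6 and 129X1 background. The 3 mutant samples (Scgb1a1-cre:Foxp1flox/flox:Foxp4flox/flox) carried floxed alleles of the forkhead repressor genes Foxp1 and Foxp4, and the 3 control samples carried the Scgb1a1-Cre driver alone, so the driver is present in both groups. The Scgb1a1 promoter is known to be active in club cells, and cells in which it was never active keep both genes. The labels do not say that each sample came from a separate mouse. All values are RMA log2 values as deposited, a difference is the mutant mean minus the control mean on that log2 scale, and p-values come from limma (two-sided). Adjusted ones use the Benjamini-Hochberg method across the 19938 genes, and a gene passed the test at an adjusted p under 0.05. These p-values rest on how far the 3 samples of a group lie from each other, which may be technical in part. For each gene limma moves that spread towards a value estimated over all genes.

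Integrins are cell surface receptors built from an alpha and a beta chain, and the combination sets the ligand. Chains paired with Itgb1 bind collagens, laminins or fibronectin, the Itga6 and Itgb4 pair anchors epithelial cells to laminin at hemidesmosomes, and several Itgav pairs bind the latent form of transforming growth factor beta and release it. Leukocytes carry their own set, with Itgb2 or Itgb7 as the beta chain, for contact with vessels, other leukocytes and epithelium. Laminins are trimers of an alpha, a beta and a gamma chain and form the sheet on which airway epithelium, smooth muscle and endothelium rest.

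Markers of airway cells and of other tissue were both high on the arrays. The mean of 5 club cell markers lay between 12.3 and 12.5 on every array and that of 6 smooth muscle markers between 10.99 and 11.4. The mean of 5 alveolar type 2 markers lay between 11.1 and 11.6, and that of 6 cardiac muscle markers between 8.63 and 11.5. Markers of leukocytes, endothelium, fibroblasts, adipocytes and alveolar type 1 cells were measured as well. Foxp4 had a difference of -0.69 (adjusted p = 0.339) and Foxp1 one of -0.23 (adjusted p = 0.444), with every mutant array below every control array for both. Control 1 stood apart from the other controls: on the first principal component of all genes it lay at -11.3, beside the mutants (-23.0 to -11.3) and away from controls 2 and 3 (38.4 and 29.4). In tissue samples of this kind, fewer cells of a type and less RNA per cell cannot be told apart.

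No integrin, laminin, nidogen or perlecan gene passed the test, against 0.266% of all genes (0.236% higher and 0.0301% lower in mutants). At an unadjusted p under 0.05 there were 5 of 41 (12.2%), against 10.1% of all genes. All 5 were integrin chains with a higher mean in mutants: Itgav, Itgb6, Itga5, Itga6 and Itga7, against 5.9% of all genes higher at that level. None of the 41 was lower at that level, against 4.17% of all genes. The groups did not overlap for 2 of the 41 genes, Itgav and Itgb6, both higher in mutants. Over all genes 15% had groups apart, 9.33% with mutants higher and 5.64% with mutants lower. The members' shares were thus near the background at the unadjusted level and below it for groups apart. The median difference over the 41 genes was 0.04, with 25 above 0 and 16 below, against a median of 0.02 over all genes.

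**Figure D1:**
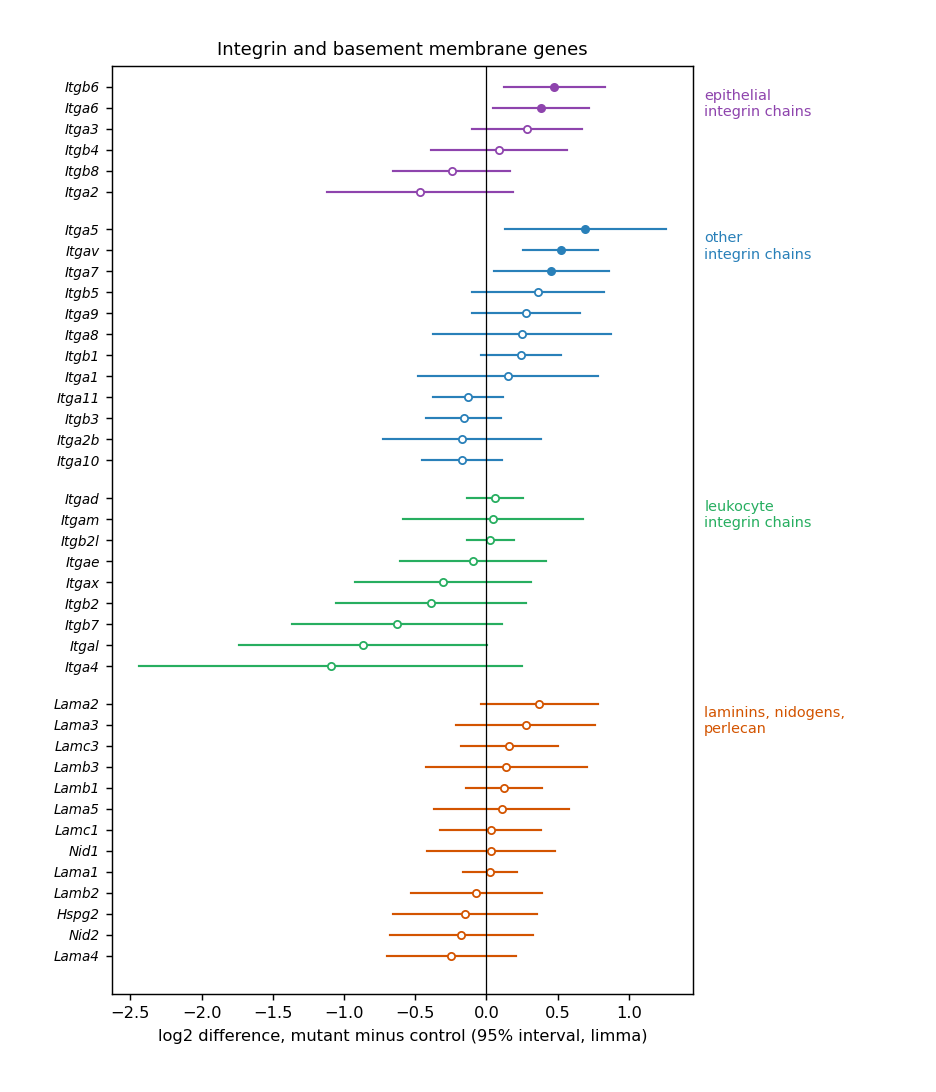
Log2 difference between mutant and control airways (horizontal axis) with its 95% interval from limma for 40 of the 41 genes (Itgbl1 is not drawn), by role, with 3 arrays per group. Filled points mark an unadjusted p under 0.05. The 5 filled points are Itgb6, Itga6, Itga5, Itgav and Itga7, all right of 0, and the intervals of all leukocyte chains and of all laminin, nidogen and perlecan genes cross 0.

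Grouped by role, the 6 epithelial integrin chains had a median difference of 0.19, with 4 above 0, and 12 chains of wider or muscle, vessel and matrix cell expression had a median of 0.24, with 8 above 0. These 12 are called other integrin chains here. The 9 leukocyte chains had a median of -0.31, with 6 below 0, and the 13 laminin, nidogen and perlecan genes had a median of 0.03. These medians describe the lists and were not tested. Of 24 known pairings of an alpha and a beta chain, both chains were above 0 in 11, both below 0 in 5, and they had opposite signs in 8.

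The sequence before the start of the genes was read because the deleted factors are forkhead proteins. RefSeq promoters (GRCm38.p6) matched 27 of the 41 genes, with 30 start sites, and the 250 bases before each start were searched on both strands for the forkhead motif in the forms GTAAACA and ATAAACA. No member promoter held either form, against 7.10% of all 32851 promoters, which says only that these letters are not in these windows. The GC box GGGCGG bound by Sp1 stood in 12 of 30, against 32.7% of all promoters, the ETS core AGGAAG in 14 of 30, against 29.5%, and the Runx core TGTGGT in 2 of 30, against 14.0%. These motifs can overlap each other, and a match is a description only. The windows of Itgav, Itgb6 and Itga5, the chains with the smallest p, and of Itga4 and Itgb7, which varied most among the leukocyte chains that have an entry, are printed with these motifs on either strand in capitals. For Itgb6 the outer of 2 listed starts is shown.
Itgav (chr2:83724147-83724396, plus strand): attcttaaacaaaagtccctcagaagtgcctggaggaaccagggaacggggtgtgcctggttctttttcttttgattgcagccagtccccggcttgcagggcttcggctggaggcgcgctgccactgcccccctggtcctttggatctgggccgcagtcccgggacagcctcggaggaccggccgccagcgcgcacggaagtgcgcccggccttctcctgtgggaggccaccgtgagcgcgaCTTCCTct
Itgb6 (chr2:60722604-60722853, minus strand): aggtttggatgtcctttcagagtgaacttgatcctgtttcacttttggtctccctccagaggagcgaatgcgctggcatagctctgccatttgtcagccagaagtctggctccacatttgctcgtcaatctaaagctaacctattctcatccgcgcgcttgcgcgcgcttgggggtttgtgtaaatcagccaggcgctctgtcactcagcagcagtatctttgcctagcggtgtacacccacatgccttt
Itga5 (chr15:103366792-103367041, minus strand): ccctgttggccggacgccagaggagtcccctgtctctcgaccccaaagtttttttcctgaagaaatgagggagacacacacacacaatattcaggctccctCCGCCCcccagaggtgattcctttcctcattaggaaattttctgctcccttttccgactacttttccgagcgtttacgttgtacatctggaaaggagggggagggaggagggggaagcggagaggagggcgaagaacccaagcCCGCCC
Itga4 (chr2:79255176-79255425, plus strand): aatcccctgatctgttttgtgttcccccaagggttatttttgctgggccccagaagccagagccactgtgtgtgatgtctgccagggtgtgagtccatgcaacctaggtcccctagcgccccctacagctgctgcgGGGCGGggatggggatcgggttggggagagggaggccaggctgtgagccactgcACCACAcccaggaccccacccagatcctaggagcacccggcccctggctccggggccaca
Itgb7 (chr15:102231936-102232185, minus strand): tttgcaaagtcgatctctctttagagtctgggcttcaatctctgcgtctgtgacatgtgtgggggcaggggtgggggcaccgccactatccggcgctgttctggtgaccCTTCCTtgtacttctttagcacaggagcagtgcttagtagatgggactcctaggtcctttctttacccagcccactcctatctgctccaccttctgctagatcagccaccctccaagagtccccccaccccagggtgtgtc
Itgav and Itgb7 each show 1 ETS core on the reverse strand, Itga5 shows 2 GC boxes on the reverse strand, Itga4 shows 1 GC box and 1 reverse Runx core, and the outer start of Itgb6 shows none of the motifs. The inner start of Itgb6, which is not shown, holds 2 ETS cores.

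Itgav, the alpha chain shared by the receptors that bind vitronectin and latent transforming growth factor beta, had the smallest p of the 41 genes. It read 9.32, 9.34 and 9.39 on mutant arrays 1, 2 and 3, against 9.02, 8.81 and 8.66 on control arrays 1, 2 and 3. The mutant arrays lay within 0.1 of each other and above every control. The difference was 0.52 (SE 0.11, 1.43-fold as measured, unadjusted p = 0.0025, adjusted p = 0.195). A two-sided exact permutation test gave p = 0.1, the smallest value that 3 against 3 arrays allow. Without control 1 Itgav passed in limma, with a difference of 0.62 and an adjusted p of 0.0440, and it was the only member to do so, against 1.95% of all genes.

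The beta chains that pair with Itgav did not share 1 direction. Itgb6, an epithelial chain whose dimer with Itgav activates latent transforming growth factor beta, read 7.35, 7.91 and 7.53 on mutant arrays, against 7.17, 7.09 and 7.11 on control arrays. Every mutant array lay above every control, and the mutants were spread over a wider range. The difference was 0.48 (SE 0.15, 1.39-fold, unadjusted p = 0.0161, adjusted p = 0.370). Itgb8, the other beta chain known for this activation, read 6.44, 6.43 and 6.90 in mutants, against 6.60, 6.98 and 6.93 in controls. These groups overlapped, with a difference of -0.25 (95% interval -0.65 to 0.16). Itgb5, whose dimer binds vitronectin, had a difference of 0.36 (adjusted p = 0.612). Itgb3, the chain of platelets and of growing vessels, had one of -0.16 (adjusted p = 0.698).

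Of the fibronectin receptor chains, Itga5, which with Itgb1 forms the classical fibronectin receptor, read 9.36, 8.64 and 9.14 in mutants, against 8.72, 8.07 and 8.27 in controls. The lowest mutant, array 2, lay just below the highest control, array 1. Its difference of 0.69 (SE 0.24, 1.62-fold) was the largest positive one among the 41 genes, with an adjusted p of 0.414. Itgb1, the common beta chain, read 10.39, 10.62 and 10.34 in mutants, against 10.38, 10.10 and 10.15 in controls. Control 1 lay within the mutants and the other controls below them (difference 0.24, 95% interval -0.04 to 0.52). Itga8, a chain of smooth muscle and fibroblasts that binds nephronectin, read 9.57, 9.97 and 9.33 in mutants, against 9.87, 9.00 and 9.26 in controls. Control 1 lay within the mutants and the other controls below them (difference 0.25, adjusted p = 0.838).

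**Figure D2:**
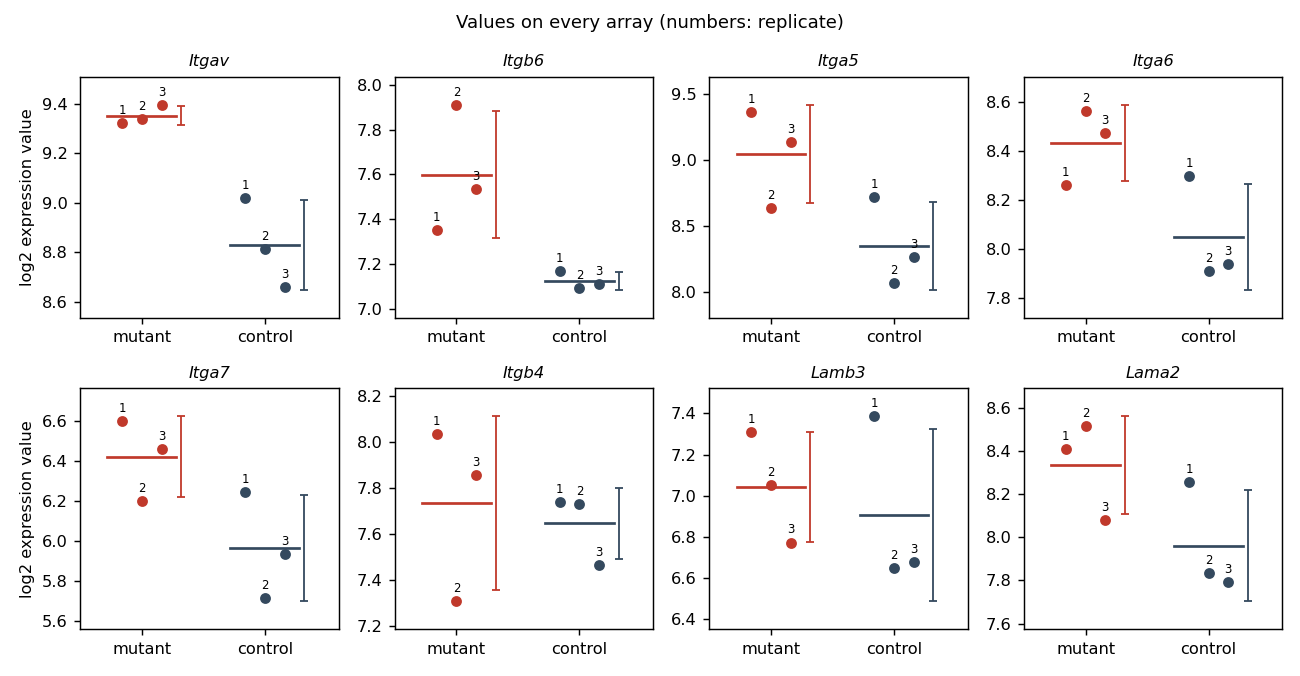
Log2 expression value (vertical axis, a scale of its own in each panel) on every array for 8 genes, mutant left and control right. Numbers give the replicate, horizontal lines the group mean, and error bars 1 SD (n = 3). The groups are apart for Itgav and Itgb6 and overlap in the other panels, where control 1 is the highest control.

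Of the laminin receptor chains, Itga6 and Itga7 were at an unadjusted p under 0.05, and Itga3 and Itgb4 were not. Itga6, the alpha chain of the hemidesmosome receptor and a marker of basal cells, read 8.26, 8.57 and 8.47 in mutants, against 8.30, 7.91 and 7.94 in controls. Control 1 lay just above mutant 1, and the other controls lay below all mutants (difference 0.38, SE 0.14, unadjusted p = 0.0307, adjusted p = 0.439). Its partner Itgb4 read 8.03, 7.31 and 7.86 in mutants, against 7.74, 7.73 and 7.47 in controls. Mutant 2 was the lowest of all 6 arrays, and the difference was 0.09 with a 95% interval of -0.39 to 0.56. Itga3, which with Itgb1 also binds epithelial laminin, read 9.54, 9.04 and 9.41 in mutants, against 9.26, 8.93 and 8.93 in controls, and control 1 lay above mutant 2 (difference 0.28, adjusted p = 0.635). Itga7, the laminin receptor chain of muscle, read 6.60, 6.20 and 6.46 in mutants, against 6.25, 5.72 and 5.93 in controls. Again only control 1 reached the range of the mutants (difference 0.46, SE 0.17, unadjusted p = 0.0315, adjusted p = 0.443).

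Markers of epithelial and muscle cells were set beside these chains. The mean of 7 basal cell markers was 7.76, 6.43 and 7.16 in mutants, against 7.28, 6.75 and 6.16 in controls, and that of 6 epithelial markers 10.7, 10.1 and 10.8 in mutants, against 10.3, 10.5 and 10.02 in controls. Mutant 2 was thus the lowest mutant for basal and epithelial markers and for Itgb4, Itga3, Itga5 and Itga7, and the highest mutant for Itgb6 and Itga6. Smooth muscle markers averaged 11.4, 10.99 and 11.3 in mutants, against 11.4, 11.1 and 11.1 in controls. Club cell markers (5 of 5) averaged 12.5 on each mutant array, against 12.4, 12.3 and 12.4 in controls. Alveolar type 2 markers (5 of 5) averaged 11.5, 11.6 and 11.5 in mutants, against 11.2, 11.1 and 11.3 in controls. For both of these lists every mutant array lay above every control, as for Itgav and Itgb6. No marker of these 5 lists passed, and the part of these cells in the differences was not tested.

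No collagen-binding or remaining chain was at an unadjusted p under 0.05. Itga2, the collagen receptor chain of epithelium and platelets, read 6.61, 7.19 and 6.10 in mutants, against 7.31, 7.09 and 6.91 in controls, with the mutants spread over more than 1 log2 unit (difference -0.47, adjusted p = 0.642). Itga1, the collagen receptor chain of smooth muscle, had a difference of 0.15, and Itga9, which binds tenascin, one of 0.28. The chondrocyte and fibroblast collagen receptor chains Itga10 (-0.17) and Itga11 (-0.13) and the platelet chain Itga2b (-0.17) were below 0, and Itgbl1 stood at 0.21. Their adjusted p ranged from 0.634 for Itga9 to 0.919 for Itga1. Itga2b read 5.47 to 5.75 on mutant arrays, against 6.29 on control 1 and 5.38 and 5.69 on the other controls, while 5 of 6 listed platelet markers were measured and averaged 6.98 to 8.19 on mutant arrays, against 8.72, 6.76 and 7.85 in controls. The part of platelets was not tested.

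For the leukocyte chains, arrays within a group differed widely. Itgal, which with Itgb2 forms the lymphocyte receptor for intercellular adhesion molecules, read 6.33, 7.36 and 6.61 in mutants, against 6.97, 7.98 and 7.95 in controls. Mutant 2 lay above control 1, and the difference was -0.87 (SE 0.36, 1.82-fold lower, unadjusted p = 0.0507, adjusted p = 0.499). Itga4, the chain that lymphocytes use with Itgb1 or Itgb7 to bind vascular and mucosal ligands, read 6.67, 7.97 and 6.59 in mutants, against 7.07, 8.80 and 8.64 in controls. It had the widest range of the 41 genes, 2.21 log2 units, and a difference of -1.09 (SE 0.56, adjusted p = 0.589). Itgb7, the beta chain of mucosal lymphocytes, read 6.61, 6.77 and 5.97 in mutants, against 6.51, 7.48 and 7.25 in controls, and control 1 lay below mutants 1 and 2 (difference -0.63, adjusted p = 0.571).

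The remaining leukocyte chains had smaller differences between the group means. Itgb2, common to all leukocytes, read 7.92, 8.53 and 7.66 in mutants, against 7.98, 8.71 and 8.59 in controls (difference -0.39, adjusted p = 0.716). Itgax, known from dendritic cells and alveolar macrophages, read 6.69, 7.09 and 6.26 in mutants, against 6.67, 7.37 and 6.91 in controls (difference -0.31). Itgae, which lets lymphocytes and dendritic cells hold on to epithelial cadherin, read 6.08, 6.61 and 5.95 in mutants, against 6.04, 6.59 and 6.29 in controls (difference -0.09). In all 3 genes mutant 2, control 2 and control 3 were the highest arrays. Itgam, the chain of neutrophils and macrophages, read 6.80, 7.46 and 6.42 in mutants, against 6.99, 6.94 and 6.62 in controls, and so followed another order (difference 0.04, 95% interval -0.59 to 0.68). Itgad, a close relative of Itgam and Itgax, read 6.44, 6.32 and 6.42 in mutants, against 6.39, 6.37 and 6.25 in controls (difference 0.06). Itgb2l, a granulocyte relative of Itgb2, read 5.50, 5.50 and 5.49 in mutants, against 5.46, 5.49 and 5.46 in controls (difference 0.03), the narrowest range of the 41 genes. Itgb2l and Lama1 had means within 1 log2 unit of an array's lower quartile (up to 4.50).

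The means of lymphocyte markers were highest on the same arrays as 6 of these 9 chains. Mutant 2, control 2 and control 3 were the 3 highest arrays for Itgal, Itga4, Itgb7, Itgb2, Itgax and Itgae, which was so for 6.80% of all genes. The mean of 9 of 10 listed B and plasma cell markers was 5.72, 7.81 and 5.96 in mutants, against 6.26, 9.47 and 9.26 in controls. For 12 of 14 listed T and NK cell markers it was 5.74, 6.45 and 5.80 in mutants, against 6.02, 7.45 and 7.45 in controls. The same 3 arrays led in the means of both lists. Within the T and NK cell list they were not the highest arrays for Cd8a, Zap70 and the NK cell markers Klrb1c and Ncr1. No marker of either list passed, and the part of lymphocytes in the leukocyte chains was not tested. The mean of 12 myeloid markers ranged from 7.87 to 8.36 in mutants and from 7.96 to 8.19 in controls. Without control 1 and mutant 2 together, a setting chosen with earlier results of these data known, Itgal (-1.50, adjusted p = 0.0035), Itga4 (-2.09, adjusted p = 8.2e-04) and Itgb2 (-0.86, adjusted p = 0.0217) passed, against 4.83% of all genes. With control 1 as the only control the difference of Itga4 was 0.00385, that of Itgal -0.20 and the median of the 9 chains 0.0066.

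**Figure D3:**
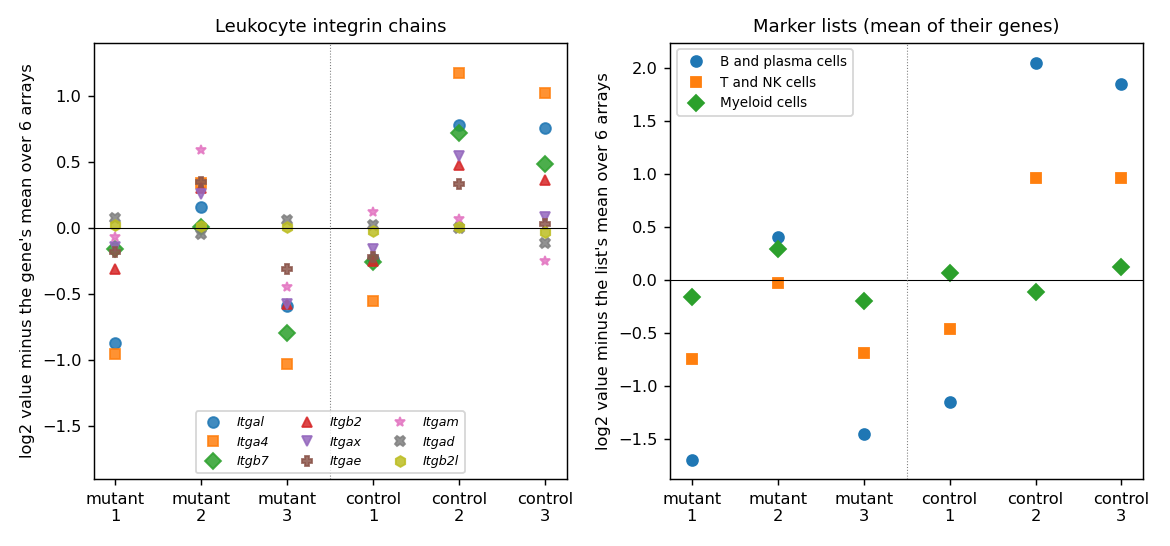
Left, log2 value of the 9 leukocyte integrin chains on each array minus the gene's own mean over the 6 arrays. Right, the same for 3 marker lists, of B and plasma cells, T and NK cells, and myeloid cells, each as the mean of its genes. Controls 2 and 3 are the highest arrays for Itga4 and Itgal and for both lymphocyte lists, while Itgad and Itgb2l hardly vary.

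Laminin chains showed no gene at an unadjusted p under 0.05. Lama3 and Lamb3 are chains of the laminin to which basal cells attach. Lama3 read 7.47, 7.74 and 7.03 in mutants, against 7.36, 6.92 and 7.13 in controls (difference 0.28, 95% interval -0.21 to 0.76). Lamb3 read 7.31, 7.05 and 6.77 in mutants, against 7.39, 6.65 and 6.68 in controls, with control 1 the highest of all arrays (difference 0.14, 95% interval -0.43 to 0.70). Lama5, the alpha chain of most adult epithelial basement membranes, read 7.90, 7.21 and 7.89 in mutants, against 7.65, 7.57 and 7.47 in controls, with mutant 2 lowest (difference 0.11, adjusted p = 0.925).

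The laminin chains of muscle, vessels and the wall in general were also within the spread of their groups. Lama2, the alpha chain of muscle and nerve sheath, had the smallest p of the laminins. It read 8.41, 8.51 and 8.08 in mutants, against 8.26, 7.84 and 7.79 in controls, and control 1 lay above mutant 3 (difference 0.37, SE 0.17, unadjusted p = 0.0681, adjusted p = 0.541). Lama4, the endothelial alpha chain, read 8.74, 8.91 and 8.83 in mutants, against 9.50, 8.94 and 8.78 in controls, where control 1 was the highest array (difference -0.25). Without that control the difference was -0.03. Lamb2, of muscle and vessel walls, read 8.57, 8.48 and 8.38 in mutants, against 8.99, 8.28 and 8.37 in controls (difference -0.07), and Lamc1, the gamma chain of most laminins, read 9.35, 9.17 and 9.02 in mutants, against 9.42, 8.98 and 9.04 in controls (difference 0.03). For Lama1 (0.02), Lamb1 (0.13) and Lamc3 (0.16) the adjusted p ranged from 0.794 to 0.960.

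Nidogens and perlecan link the laminin sheet to collagen IV. Nid1 read 8.75, 8.44 and 8.37 in mutants, against 8.86, 8.37 and 8.25 in controls (difference 0.03, 95% interval -0.42 to 0.48). Hspg2, the perlecan gene, read 8.84, 8.08 and 8.47 in mutants, against 8.87, 8.50 and 8.47 in controls (difference -0.15). Nid2 read 6.11 on each mutant array, against 6.78, 5.97 and 6.11 in controls (difference -0.18). Control 1 was the highest of all 6 arrays for each of the 3 genes. Their adjusted p ranged from 0.861 for Nid2 to 0.979 for Nid1.

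Among the controls, 1 array led for most of these genes. Control 1 was the highest control for 31 of the 41 genes (75.6%), against 43.1% of all genes. It was so for all 12 of the other integrin chains, 8 of 10 laminins and 5 of 6 epithelial chains, but for 2 of 9 leukocyte chains. Adipocyte markers (5 of 6 listed) averaged 7.81, 8.54 and 7.56 on mutant arrays, against 9.37, 7.14 and 7.84 on control arrays. Cardiac muscle markers (6 of 6) averaged 10.1, 11.2 and 8.63 on mutant arrays, against 11.5, 8.99 and 9.6 on control arrays. Control 1 was the highest array for both lists. The part of these tissues was not tested. Without controls 2 and 3 the median difference of the other integrin chains was -0.16, against 0.24 on all arrays. Without control 1 and mutant 2 together 7 of the 41 genes passed, against 4.83% of all genes. Itgav, Itga5, Itga7 and Itga3 had a higher mean in mutants, and Itgal, Itga4 and Itgb2 a lower one. These 2 arrays were picked with earlier results of these data known, so that count describes the setting and is no support for a difference.

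**Figure D4:**
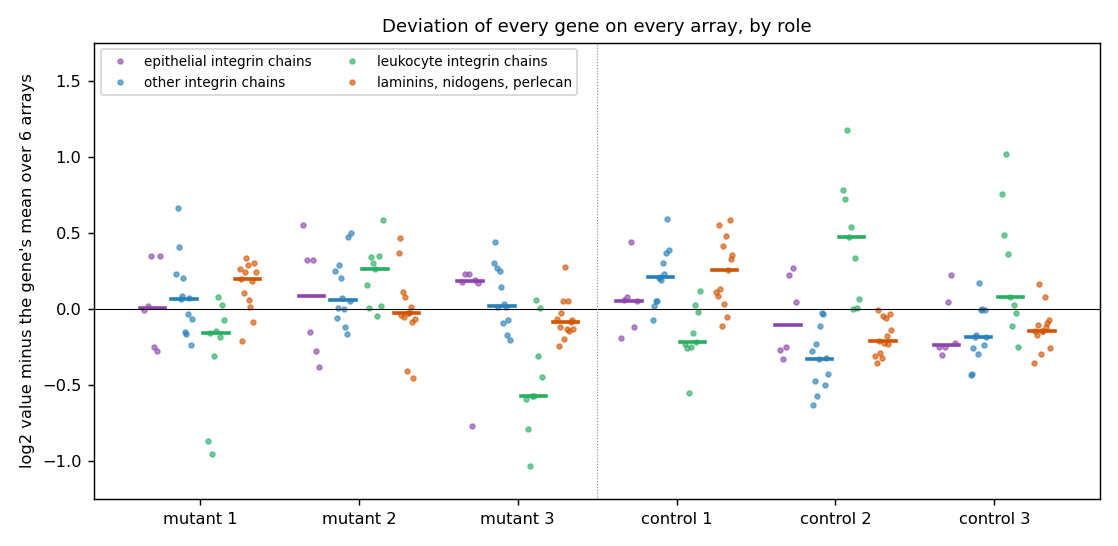
Log2 value of each gene on each array minus its own mean over the 6 arrays (vertical axis), in 4 role groups, with mutant arrays left and control arrays right. Bars are medians over the genes of a group. On control 1 the medians of the other integrin chains and of the laminin group lie above 0, and on controls 2 and 3 below 0, where the leukocyte chains lie above 0.

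The number of these genes at an unadjusted p under 0.05 also varied with the arrays in the fit. Percentages in brackets are shares of all genes in the same setting at the same threshold. It was 13 of 41 without control 1 (14% of all genes), 10 without mutant 2 (11.5%), 5 without mutant 3 (6.64%), 3 without mutant 1 (8.25%), 3 without control 2 (6.94%) and 2 without control 3 (7.28%). With these other arrays left out singly none of the 41 passed, against 0.12% of all genes without mutant 2, 0.0802% without mutant 1, 0.0752% without mutant 3, 0.0502% without control 3 and 0.0451% without control 2. Arrays were also weighted by how close they lay to the fit of their own group. This gave 15 of 41 at the unadjusted level (19.1% of all genes), and Itgav alone passed (1.46%). The lowest weights fell on mutant 2 (0.48) and control 1 (0.51), the arrays left out together in the next setting. Without control 1 and mutant 2 the number at the unadjusted level was 19 of 41, against 17.8% of all genes. The members' share at that level was above that of all genes in most of these settings. It was below that of all genes without mutant 1 and without control 3.

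The wider adhesion pathway was taken as a list of 56 adaptors, partners and ligands, of which 54 were measured. None passed. At an unadjusted p under 0.05 there were 10 of 54 (18.5%), 4 with a higher and 6 with a lower mean in mutants, against 10.1% of all genes. The groups did not overlap for 13 of 54, 6 with mutants higher and 7 with mutants lower, a larger share than the 15% of all genes. Of the 22 intracellular adaptors 3 were at an unadjusted p under 0.05. Tns3, a tensin that ties integrin tails to actin, read 9.06, 9.31 and 9.22 in mutants, against 9.57, 9.67 and 9.61 in controls (difference -0.42, adjusted p = 0.208). Fermt3, the kindlin that activates integrins in leukocytes and platelets, read 6.30, 6.63 and 6.20 in mutants, against 6.71, 7.62 and 7.49 in controls (difference -0.89, adjusted p = 0.334). Controls 2 and 3 were again the highest, as for the lymphocyte markers, and the part of lymphocytes was not tested. Parva, an actin-binding partner of the integrin-linked kinase, had a difference of 0.29 (adjusted p = 0.472).

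Among ligands, Mfge8, a secreted ligand of Itgav dimers, read 8.99, 8.83 and 8.56 in mutants, against 9.59, 10.7 and 10.1 in controls. Every mutant array lay below every control, with a difference of -1.35 (SE 0.29, 2.56-fold lower) and an adjusted p of 0.201. Without control 1 both Mfge8 (adjusted p = 0.0292) and Fermt3 (0.0282) passed, against 1.95% of all genes in that setting and 0.266% on all arrays. Madcam1, the mucosal vessel ligand of Itga4 and Itgb7 dimers, named after its values were seen, read 5.27, 4.98 and 4.88 in mutants, against 4.84, 6.42 and 5.96 in controls. Its difference was -0.70 on all arrays (adjusted p = 0.625) and -1.15 without control 1 (adjusted p = 0.0452), and control 1 lay below every mutant array. Tgfb1, the growth factor whose latent form Itgav dimers bind, read 7.64, 7.49 and 7.16 in mutants, against 7.75, 8.39 and 8.17 in controls (difference -0.68, adjusted p = 0.336). Mfge8, Madcam1 and Tgfb1 were highest on controls 2 and 3, where the B and plasma cell markers averaged 9.47 and 9.26, against 6.26 on control 1, and the part of lymphocytes was not tested. Jam3 (-0.65) and the vitronectin gene Vtn (-0.46) also had mutants below all controls, without passing. The 6 collagen IV chains, singled out after their values were seen, had differences between 0.25 and 0.35, all above 0, with adjusted p from 0.485 to 0.534.

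Hemidesmosome genes gave no gene at an unadjusted p under 0.05. Plec, the plectin that binds the tail of Itgb4, had a difference of 0.09, and Col17a1, the hemidesmosome collagen, one of -0.05. The tetraspanin Cd81 had one of -0.15 (adjusted p = 0.683). The tetraspanin Cd9 had 11.32, 11.35 and 11.43 in mutants, against 11.20, 11.23 and 11.02 in controls (difference 0.22, adjusted p = 0.502). Of the 5 laminin receptors that are not integrins, Sdc4, a heparan sulfate proteoglycan of focal adhesions, read 9.74, 9.44 and 9.54 in mutants, against 9.28, 9.05 and 9.13 in controls. All mutant arrays lay above all controls (difference 0.42, SE 0.11, unadjusted p = 0.0081, adjusted p = 0.294).

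**Figure D5:**
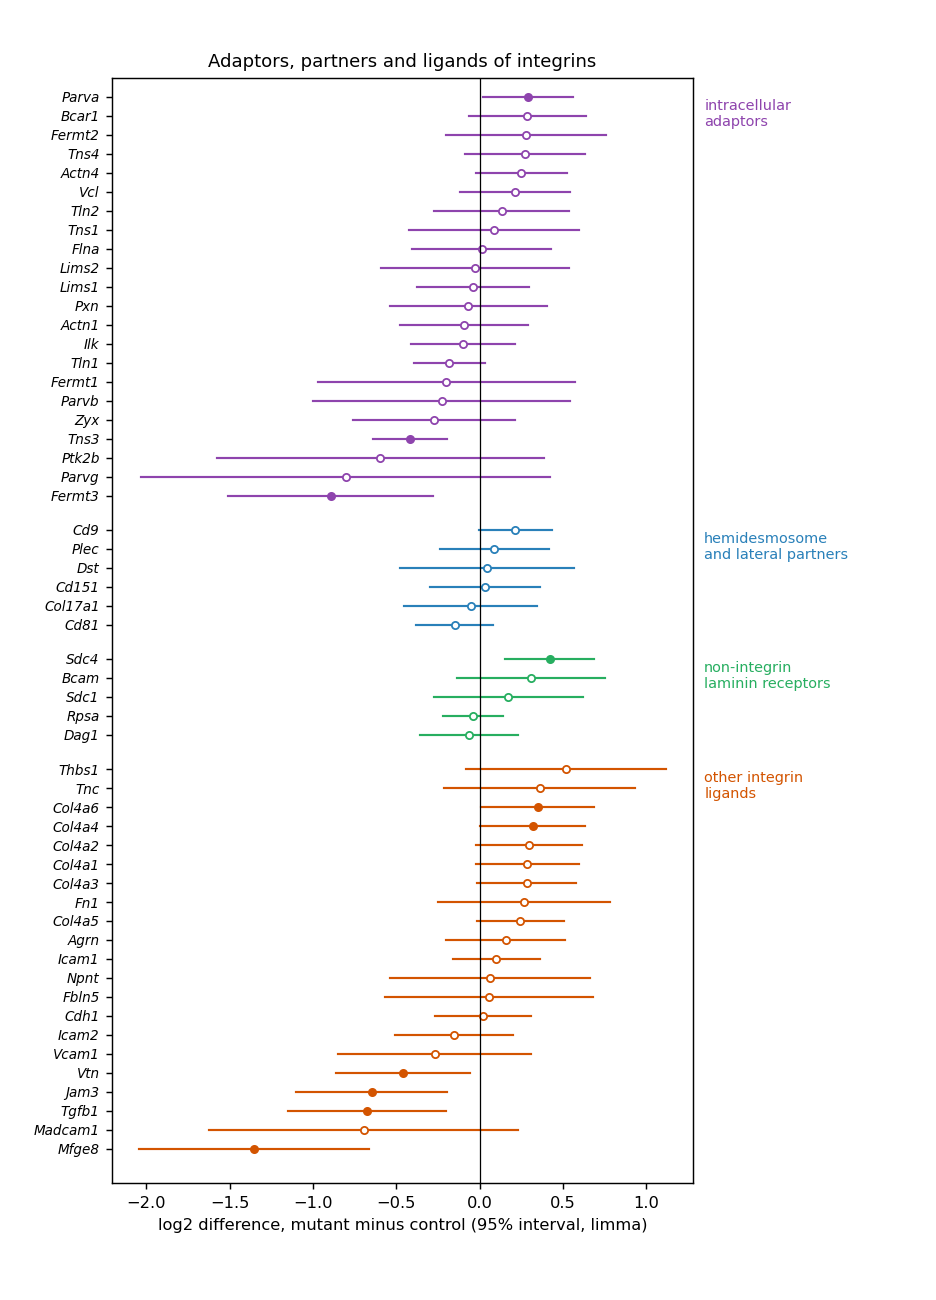
Log2 difference between mutant and control airways (horizontal axis) with its 95% interval from limma for the 54 measured adaptors, partners and ligands of integrins, with 3 arrays per group. Filled points mark an unadjusted p under 0.05. The 4 filled points right of 0 are Parva, Sdc4, Col4a6 and Col4a4, and the 6 left of 0 are Tns3, Fermt3, Vtn, Jam3, Tgfb1 and Mfge8.

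Some members are neighbours in the genome. In the gene order of GRCm38.p6, Itgam, Itgax and Itgad lie next to each other on chromosome 7, and Itga1 and Itga2 on chromosome 13, with 0 protein-coding genes between. Such neighbours did not share a direction: the differences were 0.04, -0.31 and 0.06 for Itgam, Itgax and Itgad, and 0.15 and -0.47 for Itga1 and Itga2. Itgad had a second row, with a difference of -0.0022, and 3 further rows named both Itgam and the ribosomal gene Rpl35, which the rule leaves out.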

How the data were processed

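The authors deposited 1 log2 value per array row and sample. Per the submitters' processing notes, oligo, RMA and limma were used. RMA corrects background, scales arrays to a shared distribution and compresses differences of dim rows. Scanner files and detection calls were not used here, so no row could be called above background, and no batch was tested. The sources used here do not name the array's genome build or tool versions.

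Of 35556 rows, 21789 carried exactly 1 gene symbol in the platform annotation, which left 19938 genes after taking the highest-mean row. All genes were fitted with lmFit and eBayes of limma 3.58.1, run in R 4.3.3, for mutant minus control, without a filter or covariate. Intervals are 95% intervals from the same fit. Joins used pandas 2.3.3, and plots used matplotlib 3.10.9. The fit was tested on simulated data of the same size (3 mutant and 3 control arrays, 19938 genes), with independent noise for each gene and array. Of 100 genes set to a 2-fold change 85% were called, and of 100 set to an 8-fold change in the same run 98%. Among the unchanged genes 9 were called. Such noise lacks differences that many genes share on 1 array, as on control 1, so 85% is not the share to expect in these data.

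The members, role groups, pathway and marker lists, and the rule for named genes were chosen with earlier results of these data known. By that rule, every member counts, values on every array are given for members at an unadjusted p under 0.05 and for a fixed set of defining chains, and up to 4 pathway genes per part are named by smallest p. Madcam1 and the collagen IV chains were added after their values were seen. The labels number both groups 1 to 3. With 3 arrays per group, precision is limited by their number. The same results were recomputed with an intensity trend, array weights, a block for the replicate number, the mean of a gene's rows, arrays normalised again (by quantiles or by the median), the dimmest 40% of genes removed, and arrays left out.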

Additional observations from a re-analysis of the deposited data

How the results depend on the processing

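Over 15 alternatives, 19 of the 41 genes kept the sign of their difference in every one that gave them a value (Itga10, Itga11, Itga2b, Itgb2l and Lama1 have none with the lowest 40% of genes left out), among them Itgav (0.33 to 0.63), Itgb6, Itga5, Itga6, Itga7 and Itgal. The cause of the changes below was not tested, and the lone control left without controls 2 and 3 is assumed to vary like the mutants. The number of the 41 genes past the threshold was 1 with array weights, 7 without control 1 and mutant 2, and 0 to 1 over leaving out each array in turn. Over all genes it was 0 with the replicate block, 291 with array weights, 82 with an intensity trend, 963 without control 1 and mutant 2, 0 without controls 2 and 3, and 9 to 388 over single arrays, against 53. In the labels, same-numbered mutant and control samples share only a number. Their deviations from the group means correlated at 0.14, -0.09 and -0.04 across genes, against -0.20 to 0.18 for the other pairs. With 3 arrays per group this cannot say whether same-numbered samples were handled together. At an unadjusted p under 0.05, limma gave 1945 genes with the replicate block and 1542 without controls 2 and 3. Members at an unadjusted p under 0.05 numbered 15 with array weights, 19 without control 1 and mutant 2, and 2 (without control 3) to 13 (without control 1) over single arrays. Pathway genes past the threshold numbered 2 with array weights, 7 without control 1 and mutant 2, and 0 to 3 over single arrays.

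The epithelial median was 0.34 with array weights, 0.34 without control 1 and mutant 2, 0.030 without controls 2 and 3, and 0.059 to 0.31 over single arrays. The leukocyte median was -0.67 without control 1 and mutant 2, 0.0066 without controls 2 and 3, and -0.51 (without mutant 2) to -0.096 (without mutant 3) over single arrays, with -0.11 without control 2 and -0.46 without control 1. The median of the other chains was -0.16 without controls 2 and 3 and 0.11 (without control 2) to 0.42 (without control 1) over single arrays, with 0.12 without mutant 2. The laminin, nidogen and perlecan median was -0.24 without controls 2 and 3 and -0.012 (without mutant 1) to 0.15 (without control 1) over single arrays.

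The sign changes given here are those of the members, Plec and Col17a1, and other pathway genes are not listed. Among those, Madcam1 read 4.84 on control 1, below its mutant mean of 5.05, so its difference turned above 0 without controls 2 and 3. Sign changes without controls 2 and 3 were Itgb4 -0.0052, Itgbl1 -0.19, Lamb1 -0.067, Lamb3 -0.34, Lamc1 -0.24, Nid1 -0.34, Itgb5 -0.026, Itga9 -0.073, Itga8 -0.24, Itga1 -0.31, Itgam -0.10, Plec -0.15, Itga4 0.00385, Itgb2 0.054, Itgax 0.0079 and Itgae 0.17. Without control 1 and mutant 2 they were Lamb2 0.15, Itgam -0.17, Nid2 0.073, Hspg2 0.17, Itga11 0.00432, Itga2b 0.012 and Col17a1 0.17. With array weights they were Lamb2 0.0099, Lama1 -2.2e-05, Itgam -0.078 and Col17a1 0.044. Over single arrays the ranges that crossed 0 were -0.063 to 0.30 for Itgb4, -0.012 to 0.34 for Lama5, -0.20 to 0.15 for Lamb2, -0.054 to 0.17 for Lamc1, -0.29 to 0.048 for Itgae, -0.24 to 0.28 for Itgam, -0.34 to 0.072 for Nid2, -0.34 to 0.041 for Hspg2, -0.092 to 0.21 for Nid1, -0.38 to 0.081 for Itga2b, -0.063 to 0.38 for Itga1 and -0.17 to 0.10 for Col17a1.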
